A study of Saccharomyces cerevisiae with 24 samples.

Results

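Domain III of the yeast 25S ribosomal RNA was followed through its A and C bases, the bases whose pairing dimethyl sulfate (DMS) reads. The members were every A and C at nucleotides 4692 to 5119 of RDN37, the RNA polymerase I transcript of the rDNA array on chromosome XII that is cut into 18S, 5.8S and 25S. This stretch is 25S n1441 to n1868 (numbered from the 25S 5′ end), with bounds of the domain that are approximate, and sites are named below by base and 25S position. It held 198 members, 109 A and 89 C, of 1561 A and C in 25S and 3131 in the 6858 nucleotides of RDN37. Position and base alone set the membership, and depth limits entered only in the tests. The members were chosen with earlier results of these data known.

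The samples were particles from Saccharomyces cerevisiae grown in YPD to mid-log phase, in 8 groups of 3 libraries, with replicates that the series design calls biological. In the first experiment pre-40S particles were pulled out through TAP-tagged Utp9, an early component of the small-subunit processome, from cells with the Rrp5_mL form of Rrp5 (mL) or with wild-type Rrp5 (WT), both also carrying H375A. Rrp5 is an assembly factor needed for both ribosomal subunits. The labels do not say what mL stands for or which protein has H375A. In the second experiment mature ribosomes came from BY4741 lacking snr31 and snr54 (called the deletion below) or from unaltered BY4741. The labels speak of mature ribosomes in some places and of mature 40S in others. snR31 and snR54 are snoRNAs that guide modifications of 18S, and neither is known to have a target in this domain. Each of the 4 kinds of particle was left untreated or given DMS, at 1% and for 5 min at 30 °C. The buffer held HEPES at 800 mM, NaCl at 500 mM and magnesium acetate at 50 mM, and RNase P RNA of Bacillus subtilis was present at 0.2 µM.

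Domain III lies close to the exit of the peptide tunnel and is bound by Rpl25 (uL23), a ribosomal protein at which nascent chains and their partners meet the ribosome. DMS adds a methyl group to the Watson-Crick edge of an A or C that no base pair or contact covers, and the TGIRT-III reverse transcriptase copies a methylated base as a mutation. A mutation rate, mutated reads over all reads that cover the base, is therefore high at open bases and low at covered ones. An untreated library gives the background of the same base, which includes copying errors and natural modifications.

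The pre-40S purification was not aimed at 25S, so the members were read far less deeply there. The depth of 25S over that of 18S was 0.638 to 0.771 in treated pre-40S libraries, against 2.06 to 2.38 in treated mature ones. Which 25S-containing particles came along cannot be told apart in these files. The median number of reads covering a member was 169.5 to 453.5 in the 6 treated pre-40S libraries and 48 to 677 in the 6 untreated ones, against 43509 to 63427.5 and 44515.5 to 111600.5 in the mature libraries. All 198 members reached a depth of 1000 in the 12 mature libraries and of 50 in the 6 treated pre-40S libraries. Only 89 members, 53 A and 36 C, reached 50 in all 12 pre-40S libraries, because untreated WT replicate 1 had a median of 48. Untreated WT replicate 2 stood apart, with a 25S to 18S depth ratio of 0.0386. Counts of calls from tests of these untreated WT libraries, and the untreated WT means that 1 of them moved most, are given with and without it. Comparisons of treated groups used every untreated WT library in a filter on treated over untreated rate, and their counts are not given without 1 of these libraries. Floors and intervals cover counting error only.

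The sequences that carry the results are printed 5′ to 3′ from the deposited profiles. In the first 3, capitals mark members among the 10 A and 5 C with the highest treated rates in BY4741. These stretches hold 7 of those 15, among them the highest 3 of each base, and the other 8 lie elsewhere in the domain.
25S n1700 to n1737: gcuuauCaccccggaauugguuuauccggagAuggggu
25S n1754 to n1768: gccagcACCuuugcu
25S n1803 to n1820: cacaggAaggaAuaguuu
In the next 5, capitals mark members called lower in pre-40S than in mature particles after scaling, in at least 1 of the pairs described below. A call is an edgeR adjusted p under 0.05, and members in lower case may differ in the same direction without a call.
25S n1496 to n1515: ccacguCAacagcAguugga
25S n1553 to n1595: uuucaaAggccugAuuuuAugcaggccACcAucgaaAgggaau
25S n1698 to n1712: cagcuuAuCaccccg
25S n1751 to n1768: gaggccAgcACCuuugcu
25S n1803 to n1822: cacaggAaggaAuAguuuuc
In the last 3, capitals mark members called higher in pre-40S particles after scaling in at least 1 pair.
25S n1450 to n1481: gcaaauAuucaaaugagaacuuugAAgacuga
25S n1631 to n1663: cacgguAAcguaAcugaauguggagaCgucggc
25S n1692 to n1720: ucuuaaCagcuuaucAccccggAauuggu
The stretch around n1700 holds marked bases of both kinds within a few nucleotides of each other, C1706 on the lower side and C1698, A1707 and A1714 on the higher side. Of these, C1698 and A1707 were called only in WT pre-40S against BY4741. In mL pre-40S against the deletion A1707 was tested and not called. C1698 was not tested there, because its treated mL rate did not pass the filter on treated over untreated rate.

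DMS raised the mutation rate at all 109 A members in the mature libraries. The median A member, as the mean of the library medians, had 1.80% ± 0.184 mutated reads in treated mL pre-40S, 1.50% ± 0.345 in treated WT pre-40S, 1.12% ± 0.103 in the treated deletion and 0.826% ± 0.127 in treated BY4741 (SD, n = 3 each). The same medians without DMS were 0.0352%, 0%, 0.0277% and 0.0312%. C members stayed much lower, with treated medians of 0.254% ± 0.0704 in mL, 0.207% ± 0.180 in WT, 0.0950% ± 0.0163 in the deletion and 0.128% ± 0.0071 in BY4741. The 790 A of 25S outside the domain had treated medians of 1.81%, 1.61%, 0.911% and 0.701% in the same order, so the A members lay close to the rest of 25S in pre-40S particles and a little above it in mature ribosomes, a difference that was not tested.

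Treated and untreated libraries of each strain were compared with edgeR's quasi-likelihood test on mutation counts, fitted over all bases of RDN37 with enough reads, and a site was called at a Benjamini-Hochberg adjusted p under 0.05. A site also needed at least 10 mutations over the libraries compared. Members held 697 to 1726 mutations in each treated pre-40S library and 27 to 790 in each untreated one. Pre-40S sites thus entered largely through treated reads, which favours a call of higher, for members and background alike. In mL pre-40S 88 of 109 tested members were higher with DMS, where 81.5% of all tested A and C were, and 2 were lower, where 0.76% were. In WT pre-40S 29 of 38 tested members were higher and none was lower, against backgrounds of 82.8% and 0.743%. The WT count was 62 of 84, with 1 lower, without untreated replicate 1 and 29 of 36 without untreated replicate 2. In the deletion 143 of 198 were higher and 9 lower, against backgrounds of 80.7% and 1.82%. In BY4741 141 of 198 were higher and none was lower, against backgrounds of 77.9% and 0.243%. The shares of members higher with DMS were near or below those of all A and C.

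The split between the bases was wide. All 109 A were called higher in both mature strains, with median log2 changes of 5.09 in the deletion and 4.51 in BY4741, and 74 of 79 tested A were called higher in mL. The mL share is subject to the filter on mutations given above. Of the 89 C, 34 were called higher in the deletion and 32 in BY4741, with median log2 changes of 0.12 and 0.47. Shares called over all tested A and over all tested C are not given apart. In 25S outside the domain, the treated BY4741 medians were 0.701% for A and 0.124% for C, so the bases were split there too. The 9 members lower with DMS in the deletion were all C at rates near background. C1496, for example, averaged 0.0908% in treated against 0.152% in untreated deletion libraries (edgeR log2 change -0.75, adjusted p = 0.00385). The A with the lowest treated rate in BY4741, A1612, averaged 0.0717% in treated against 0.0295% in untreated BY4741 libraries (log2 change 1.28, SE 0.27, edgeR adjusted p = 0.00157).

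**Figure D1:**
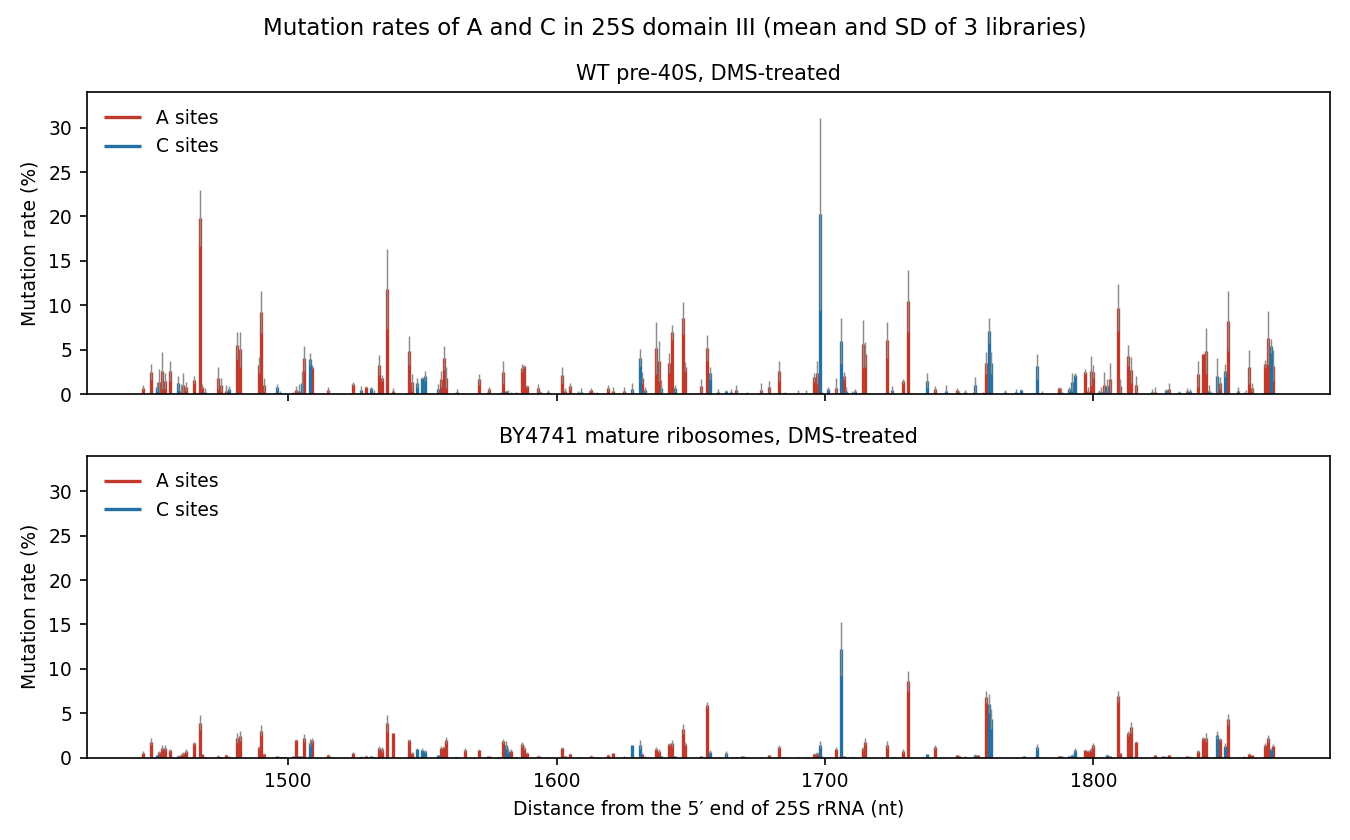
Mutation rate with DMS (percent) along the domain in WT pre-40S and BY4741 mature libraries, plotted against the distance from the 25S 5′ end in nucleotides. Bars are means and error lines SDs of 3 libraries, A in red and C in blue. Most tall bars are A, and the C members that stand out are C1698 in WT pre-40S (20.3%) and C1706 in BY4741 (12.3%).

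The most mutated member of mature ribosomes was a C. C1706 had 7.25, 6.15 and 7.45% mutated reads in treated mL pre-40S and 5.74, 8.63 and 3.51% in treated WT pre-40S. In mature ribosomes it had 13.5, 18 and 13.3% in the treated deletion and 13.0, 8.91 and 14.9% in treated BY4741. The pre-40S values therefore lay below every mature value, and the untreated mature libraries averaged 0.0963% in the deletion and 0.128% in BY4741. The DMS effect at C1706 was a log2 change of 7.31 (SE 0.30) in the deletion and 6.58 (SE 0.33) in BY4741, with edgeR adjusted p of 1.34e-13 and 6.57e-09.

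A1731 and A1809 were the most mutated A of BY4741. A1731 had 7.33, 6.25 and 13.3% in treated mL and 6.47, 12.9 and 12.1% in treated WT, against 10.5, 14.1 and 12.2% in the treated deletion and 8.49, 7.65 and 9.84% in treated BY4741, so the groups overlapped before any scaling. A1809 had 9.52, 9.17 and 9.32% in treated mL and 12.3, 7.11 and 9.85% in treated WT, against 6.71, 8.24 and 7.03% in the deletion and 6.29, 7.43 and 7.01% in BY4741. At A1809 every treated mL library lay above every treated mature library before scaling, while untreated mL already averaged 3.38% there. After scaling A1809 was called lower in mL than in the deletion, at a log2 change of -0.77. A cluster of 3 neighbours, A1760, C1761 and C1762, averaged 8.35%, 7.59% and 5.78% in the treated deletion and 6.81%, 6.11% and 4.33% in treated BY4741.

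At least 1% mutated reads with DMS were found at 85 members in mL, 87 in WT, 76 in the deletion and 61 in BY4741. Without DMS this level was reached by 14 members in mL, 16 in WT (10 without untreated replicate 1 and 19 without untreated replicate 2), and none in the deletion or BY4741, whose highest untreated member means were 0.613% and 0.663%. Divided into 4 equal stretches, the domain had its lowest A median in mature ribosomes between n1655 and n1761, at 0.756% in the treated deletion and 0.495% in treated BY4741, although this stretch also held C1706, A1731 and A1760. The stretch from n1762 to n1868 had the highest, at 1.20% and 0.963%. It was also the highest in pre-40S particles, at 2.26% in mL and 2.18% in WT.

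The first strain comparison asked whether the Rrp5_mL form changed domain III in pre-40S particles. No member was called between treated mL and treated WT among 58 tested, where 0.267% of all tested sites were called. For this test each library's rates were first divided by a library factor, the median over tested sites of the rate over its geometric mean across libraries, so that a change is relative to the typical site. The median log2 change over the tested members was 0.11, against -0.00 over all tested sites. At an unadjusted p under 0.05 there were 3 members, all higher in mL, or 5.17% of those tested, where 7.92% of all tested sites were. After scaling, 7 members were higher and 1 lower with no overlap between the groups, where 12.2% of all tested sites did not overlap.

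The smallest p was that of A1580. It had 5.23, 5.01 and 6.64% in treated mL, against 1.37, 2.17 and 3.90% in treated WT. All mL libraries were above all WT libraries, with a log2 change of 1.09 (SE 0.34), but the edgeR adjusted p was 0.171. A1587, a few bases downstream, had 5.72, 5.98 and 6.48% in treated mL, against 2.41, 3.27 and 3.09% in treated WT. These groups did not overlap either, at a log2 change of 0.87 (SE 0.29) and an edgeR adjusted p of 0.252. A1842 and A1800 were also higher in mL in their means, by 0.69 and 0.83 on the log2 scale, with edgeR adjusted p of 0.624 and 0.648, and A1760 was lower by 0.58 with an adjusted p of 0.781. A1566 was too rarely mutated for the test, with 14 mutated of 1059 reads in treated mL and 0 of 699 in treated WT. The 0 allows up to 0.429%, and the pooled mL rate of 1.32% was 3.08 times this limit. That ratio leaves out the counting error of the mL reads and the library factors. The edgeR adjusted p of A1566 was 0.249 when sites with at least 10 mutations were admitted.

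The second strain comparison asked the same of the snoRNA deletion in mature ribosomes. No member was called between the treated deletion and treated BY4741 among 135 tested, and 0% of all 1881 tested sites were called. At an unadjusted p under 0.05 there were 5 members higher and 13 lower, or 13.3% of those tested, where 15.8% of all tested sites were. Over 25S outside the domain 41 sites were higher and 94 lower at that p. The groups did not overlap at 7 members higher and 18 lower after scaling, against a background of 21.5% in either direction. The median log2 change was -0.05 over the members and -0.01 over all tested sites. These changes are again relative to the typical site. Log2 library factors were 0.19, 0.33 and 0.08 for the deletion and -0.32, -0.31 and 0.03 for BY4741. Before scaling, mean rates were higher in the deletion at 105 A and lower at 4, with a median ratio of 1.27. Among C they were higher at 37 and lower at 52.

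The smallest p was at A1858, near the 3′ bound of the domain. It had 0.362, 0.304 and 0.4% in the treated deletion, against 0.543, 0.362 and 0.532% in treated BY4741. The lowest BY4741 library lay inside the range of the deletion before scaling, and none overlapped after it (log2 change -0.82, SE 0.20, edgeR adjusted p = 0.134). DESeq2 on the same counts called this site, with a log2 change of -0.82 and an adjusted p of 0.0221. A1474, A1810, A1813 and C1698 followed, with scaled log2 changes of -0.45, -0.35, -0.29 and -1.09 and edgeR adjusted p of 0.156, 0.190, 0.190 and 0.192. Before scaling, the deletion means of A1810 and A1813 were above those of BY4741, at 0.519% against 0.502% and 2.99% against 2.76%. Those of A1474 and C1698 were below, at 0.237% against 0.247% and 0.925% against 1.47%.

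Without DMS no member was called in either strain comparison. None of 13 tested members was called between untreated mL and untreated WT, where 1.28% of all tested sites were called, and none had an unadjusted p under 0.05. The count was 0 of 29 without untreated WT replicate 1 and 0 of 8 without untreated WT replicate 2. None of 198 was called between the untreated deletion and untreated BY4741, where 0% of all tested sites were called. Of 5 members with an unadjusted p under 0.05, 2 were higher in the deletion and 3 were lower.

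The difference between strains in the DMS effect itself was tested as an interaction in edgeR. No library factor was used here, unlike in the strain comparisons above, so a shift common to most sites stays in these values. In pre-40S particles 0 of 36 tested members were called, against a background of 1.29%, with 1 at an unadjusted p under 0.05. The count was 1 of 70 without untreated WT replicate 1 and 0 of 34 without untreated WT replicate 2. In mature ribosomes 0 of 198 were called, against a background of 0.0405%. At an unadjusted p under 0.05 the DMS effect was larger in the deletion at 29 members and smaller at 10, together 19.7% of those tested, where 18.7% of all tested sites were, 416 larger and 46 smaller. These members were 27 A larger and 0 smaller, and 2 C larger and 10 smaller. Shares over all tested A and over all tested C are not given apart. The median difference was 0.35 on the log2 scale over the members and 0.39 over all tested sites. DESeq2 called 4 members here, A1503, A1638, A1731 and A1842, which are named for that call, after their values were seen. The share of all tested sites that DESeq2 called is not given, so this count is not read as particular to the members.

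Pre-40S and mature particles were set side by side in 2 pairs of groups that share no library, WT pre-40S against BY4741 and mL pre-40S against the deletion. The particles come from different experiments, strains and purifications, so particle and experiment cannot be told apart in any value of this comparison. Mutation rates were higher in pre-40S libraries at most sites of the transcript. The log2 library factors were 0.31, 0.72 and 0.95 for WT against -0.78, -0.78 and -0.41 for BY4741, and 0.55, 0.51 and 0.62 for mL against -0.56, -0.42 and -0.69 for the deletion. The calls below are thus relative to the typical site, and unscaled rates are given beside them.

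In WT pre-40S against BY4741, 33 of 122 tested members were called, 10 higher and 23 lower, where 32.7% of all tested sites were called, 14.7% higher and 18% lower. In mL pre-40S against the deletion, 29 of 119 were called, 9 higher and 20 lower, where 37.3% of all tested sites were called, 16.3% higher and 20.9% lower. The shares of members called were below the background in both pairs, except for members lower in the WT pair, which were near it. The median log2 change over members was -0.21 and -0.15 in the WT and mL pairs, against -0.18 and -0.14 over tested 25S sites outside the domain and -0.01 and 0.00 over all tested sites. Without the library factor 60 members were called in the WT pair, 54 of them higher, and 74 in the mL pair, 66 of them higher. The share of all tested sites called without the factor is not given here, so these counts are not read as particular to the members.

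Of 112 members tested in both pairs, 18 were called in both, and in all 18 the direction was the same. The lower ones numbered 15, which is 65.2% of the WT pair's list and 75% of the mL pair's list, and the higher ones numbered 3, or 30.0% and 33.3%. Of the 15, 11 were also lower in the unscaled means of both pairs, and 4 were called lower in both pairs even without a library factor, A1503, A1583, C1706 and A1760. The 3 higher sites, A1637, A1643 and A1714, were higher with and without the factor. The overlap over all sites tested in both pairs is not given, so these counts are not read as particular to the domain. Both pairs also compare the same experiments.

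**Figure D2:**
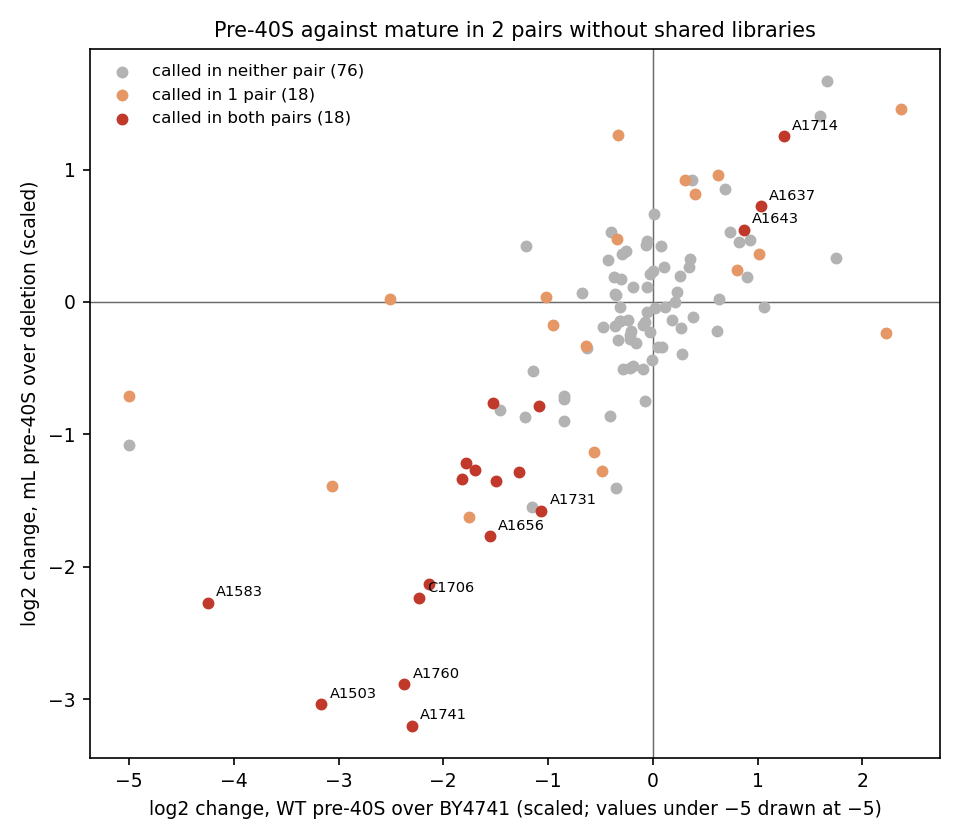
Scaled log2 change of each of 112 members, WT pre-40S over BY4741 on the x axis and mL pre-40S over the deletion on the y axis, with 76 members called in neither pair, 18 in 1 and 18 in both. The 15 members called lower in both lie at the lower left and the 3 called higher in both in the upper right, and 2 points under -5 are drawn at -5.

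A1503 was among the 4 sites called lower with and without the factor. It had 0.344, 0.893 and 0.558% in treated mL pre-40S, against 2.38, 2.88 and 2.50% in the treated deletion. In treated WT pre-40S it had 0.765, 0.665 and 0%, against 2.03, 1.84 and 2.08% in treated BY4741, and the 0 of WT replicate 3 allows up to 0.949%. Every pre-40S library was below every mature library on the unscaled rates. The scaled log2 change was -3.04 (SE 0.28, edgeR adjusted p = 3.63e-07) in the mL pair and -3.16 (SE 0.40, adjusted p = 3.07e-06) in the WT pair. The site lies in a run where C1502 was also called lower in the mL pair and A1509 in the WT pair, sites named after their values were seen. A1509 was lower only after scaling (log2 change -0.63), with unscaled means of 3.07% in treated WT and 1.97% in treated BY4741. At C1502 the call rests on 1 mutated read in mL, a ratio of 0.238 to the deletion with a 95% counting interval of 0.00602 to 1.32.

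A1760 showed the difference at much higher rates. It had 3.24, 2.14 and 2.43% in treated mL, against 7.41, 9.30 and 8.34% in the treated deletion. In treated WT it had 2.27, 3.44 and 4.81%, against 7.07, 6.05 and 7.31% in treated BY4741. No pre-40S library reached the lowest mature one, and the scaled log2 change was -2.89 (SE 0.19, edgeR adjusted p = 9.99e-09) in the mL pair and -2.37 (SE 0.22, adjusted p = 2.82e-08) in the WT pair. Unscaled, the mean rate of mL was 0.312 of that of the deletion and the mean rate of WT was 0.515 of that of BY4741.

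Its neighbours C1761 and C1762 differed from it. C1761 had 9.64, 8.54 and 10.7% in treated mL, against 7.55, 8.29 and 6.93% in the treated deletion, and 5.85, 7.0 and 8.60% in treated WT, against 5.70, 5.29 and 7.34% in treated BY4741. Before scaling, the pre-40S means at C1761 were higher, by ratios of 1.27 and 1.17 in the mL and WT pairs, and only after scaling was the site called lower, with log2 changes of -0.78 and -1.09. C1762 had ratios of 0.906 and 0.811 before scaling and log2 changes of -1.27 and -1.69 after it. The mean of A1760 was thus 2.60% in treated mL, under 9.63% at C1761 and 5.24% at C1762, whereas in both mature strains A1760 was the highest of the 3. In treated WT, A1760 and C1762 had equal means of 3.51%.

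C1706, the top member of mature ribosomes, was called lower in both pairs by nearly the same amount. The log2 change was -2.24 (SE 0.18, edgeR adjusted p = 6.22e-08) in the mL pair and -2.23 (SE 0.27, adjusted p = 1.25e-06) in the WT pair, a scaled fold of 4.71 and 4.70. A1707, the next base, went the other way in the WT pair, with a mean of 2.07% in treated WT against 0.183% in treated BY4741 and a scaled log2 change of 2.23. This call rested on 11 mutated of 523 reads in WT. In the mL pair A1707 was not called, at 0.303% in treated mL against 0.223% in the treated deletion (scaled log2 change -0.235, edgeR adjusted p = 0.875).

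A1741 and A1656 were lower too. A1741 had 0.474, 0.528 and 0% in treated mL, against 1.38, 1.70 and 1.23% in the treated deletion, and 0.253, 0.949 and 0.649% in treated WT, against 0.955, 1.33 and 1.30% in treated BY4741. The 0 of mL replicate 3 allows up to 0.725%, and no pre-40S library reached a mature one. The scaled log2 change was -3.20 (SE 0.46, edgeR adjusted p = 4.24e-05) in the mL pair and -2.30 (SE 0.49, adjusted p = 0.000839) in the WT pair. Without a library factor the WT pair's change at A1741 was -1.04 with an edgeR adjusted p of 0.171. A1656 had 4.37, 4.17 and 4.47% in treated mL, against 6.74, 7.25 and 6.45% in the treated deletion. In treated WT it had 3.55, 6.12 and 5.99%, against 5.84, 5.64 and 6.33% in treated BY4741. The mL pair did not overlap at A1656 and the WT pair did before scaling. The scaled changes were -1.77 (SE 0.17, edgeR adjusted p = 4.64e-07) and -1.56 (SE 0.19, adjusted p = 2.26e-06) in the mL and WT pairs.

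A run from A1559 to A1589 held 7 of the sites called lower in at least 1 pair. At 4 of them, A1559, A1571, A1580 and A1589, the pre-40S mean was at or above the mature one before scaling in a pair that called them. The unscaled ratios of mL over the deletion were 1.22 at A1559, 1.11 at A1571 and 1.02 at A1589, and those of WT over BY4741 were 0.937 at A1559 and 1.31 at A1580. The other 3 rested on few mutated reads in WT. A1583 averaged 0.345% in treated mL against 0.919% in the treated deletion, and 1 mutated read of 1018 was found in treated WT, a ratio of 0.127 to BY4741 with a 95% counting interval of 0.00322 to 0.709. C1581 had 3 mutated reads of 972 in WT, a ratio of 0.210 (95% interval 0.0432 to 0.612). A1566 had 0 of 699 in WT against a mean of 0.878% in BY4741, which makes it at least 2.04-fold lower before scaling. Before scaling A1566 was not lower in mL, at 1.59, 1.23 and 1.31% against 0.843, 1.16 and 1.00% in the deletion. After scaling it was lower in mL with no overlap, but it was not called (log2 change -0.71, edgeR adjusted p = 0.113).

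The 3 sites higher in both pairs were A1637, A1643 and A1714. A1643 had 5.88, 7.79 and 5.88% in treated mL, against 2.22, 2.21 and 1.98% in the treated deletion, and 7.75, 6.11 and 7.07% in treated WT, against 1.44, 1.35 and 2.11% in treated BY4741. No library overlapped. The scaled log2 change was 0.55 (SE 0.19, edgeR adjusted p = 0.0354) in the mL pair and 0.87 (SE 0.23, adjusted p = 0.00561) in the WT pair. A1643 also had untreated mutations in pre-40S, at 1.03, 2.74 and 0.781% in mL and 0, 5.94 and 0.920% in WT, whose part in the result was not tested. Without WT replicate 1 the WT pair's change at A1643 was 0.51 with an edgeR adjusted p of 0.203, and without mL replicate 2 the mL pair's was 0.32 with 0.451.

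A1714 had 7.32, 8.56 and 8.33% in treated mL, against 1.55, 1.73 and 1.51% in the treated deletion, and 8.78, 4.12 and 4.08% in treated WT, against 0.912, 0.968 and 1.30% in treated BY4741. All pre-40S libraries were above all mature ones, and no untreated pre-40S library held a mutation there, which allows up to 0.865 to 7.32% per library. The scaled log2 change was 1.25 in both pairs (SE 0.19, edgeR adjusted p = 8.35e-05 in the mL pair; SE 0.34, adjusted p = 0.00666 in the WT pair). A1637 had 6.59, 3.10 and 7.42% in treated mL, against 1.47, 1.61 and 1.37% in the treated deletion, and 3.25, 8.56 and 3.78% in treated WT, against 0.945, 0.951 and 1.21% in treated BY4741. Pre-40S was again higher in every library before scaling, by ratios of the means of 3.84 and 5.02 in the mL and WT pairs. The scaled log2 changes were 0.72 (SE 0.24, edgeR adjusted p = 0.0287) and 1.03 (SE 0.28, adjusted p = 0.00646) in the mL and WT pairs. The WT pair's call was lost at A1714 without WT replicate 1, at 0.48 with an edgeR adjusted p of 0.475, and at A1637 without WT replicate 2, at 0.50 with 0.329.

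**Figure D3:**
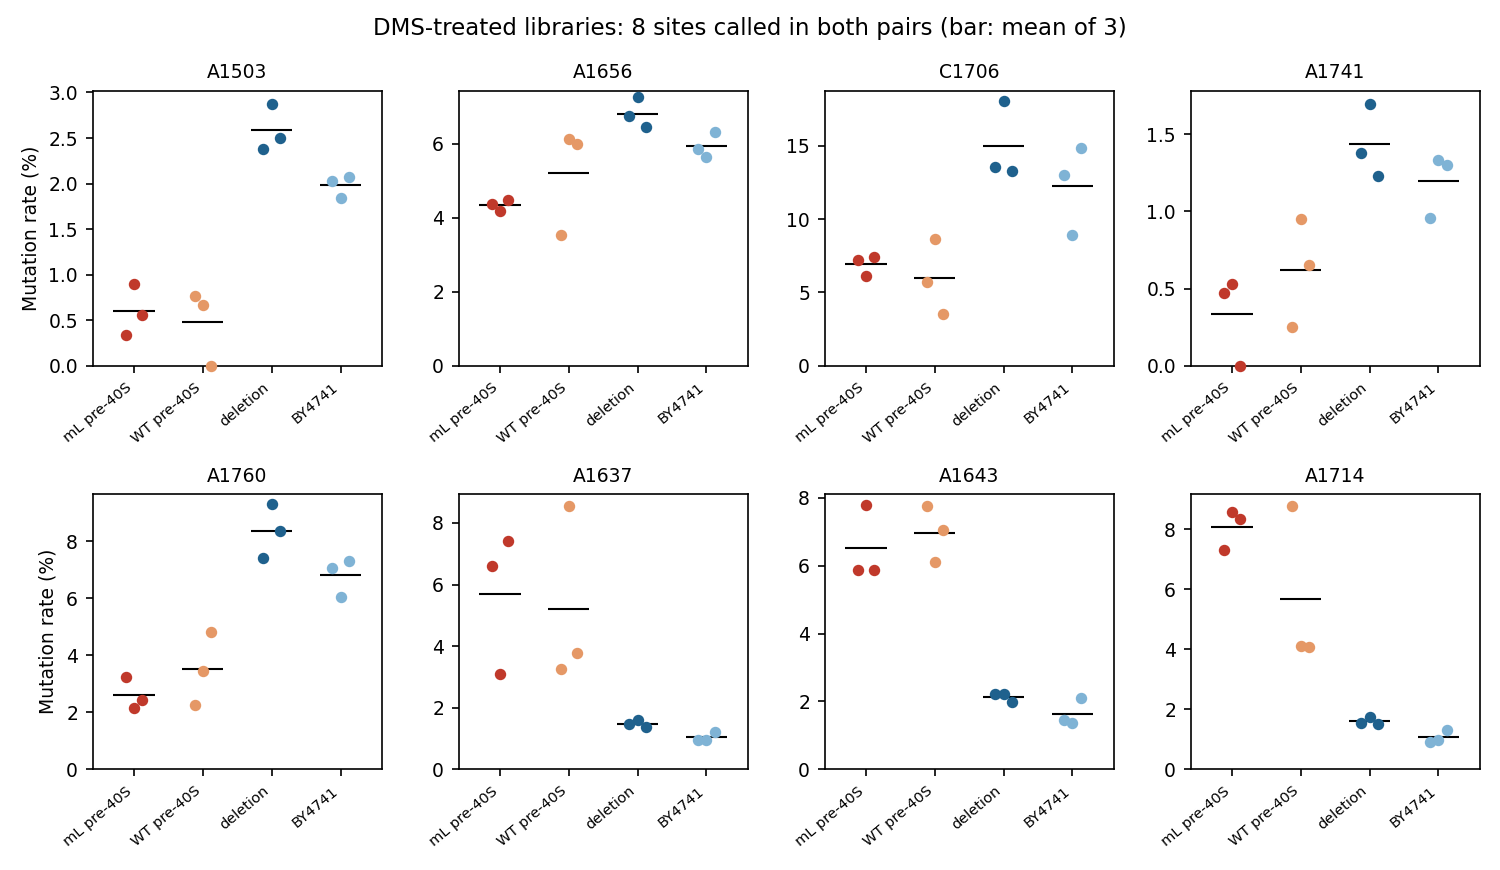
Mutation rate with DMS (percent) at 8 members in mL and WT pre-40S and in deletion and BY4741 mature libraries. Each point is a library and each bar the mean of 3. The 8 sites were chosen after their values were seen. The first 5 panels show sites called lower in pre-40S and the last 3 the sites called higher in both pairs, with all pre-40S points of A1714 at 4.08% or more and all mature points at 1.73% or less.

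A1449, which is 2′-O-methylated under the guidance of snR24, lies near the 5′ bound. This modification leaves the Watson-Crick face free. A1449 had 3.53, 2.48 and 5.78% in treated mL, 1.54, 2.70 and 3.24% in treated WT, 2.03, 2.00 and 1.74% in the treated deletion and 1.38, 2.22 and 1.88% in treated BY4741. The mL libraries lay above the deletion, and WT and BY4741 overlapped. DMS raised it by 4.24 on the log2 scale in the deletion (SE 0.18, edgeR adjusted p = 2.32e-13) and by 4.02 in BY4741 (SE 0.28, adjusted p = 3.91e-08). In WT pre-40S against BY4741 the scaled change was -0.95 (SE 0.35, edgeR adjusted p = 0.0454), and it turned to 0.34 without a library factor.

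Some members were mutated in pre-40S particles with no DMS at all. With DMS, A1467 had 16.5, 12.1 and 20.7% mutated reads in mL and 16.2, 21.7 and 21.6% in WT, against 3.83, 3.23 and 3.85% in the deletion and 4.25, 3.04 and 4.57% in BY4741. Untreated, it still had 16.2, 15.2 and 11.3% in mL and 9.09, 19.2 and 8.33% in WT, against 0.919, 0.443 and 0.476% in the deletion and 0.0663, 1.36 and 0.562% in BY4741. The treated and untreated mL libraries overlapped, with a log2 change of 0.17 and an edgeR adjusted p of 0.674, while the mature libraries were raised by 2.57 in the deletion and 2.58 in BY4741 (edgeR adjusted p = 1.88e-08 and 0.00964). The treated and untreated means of A1467 were 16.4% and 14.2% in mL, and 19.8% and 12.2% in WT.

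C1698 had the highest treated mean of any member, 20.3% in WT pre-40S, and the same feature. With DMS its rates were 8.67, 9.19 and 5.49% in mL and 32.4, 11.6 and 16.8% in WT, against 0.634, 0.848 and 1.29% in the deletion and 1.82, 1.56 and 1.04% in BY4741. Its untreated rates were 11, 19.6 and 9.17% in mL and 0, 24.2 and 6.03% in WT, where the 0 comes from 38 reads and allows up to 7.89%. The untreated mature libraries had 0.340, 0.163 and 0.267% in the deletion and 0.0768, 0.798 and 0.222% in BY4741, so all but 1 of the untreated pre-40S libraries were far above them. In mL the treated mean was below the untreated one, 7.78% against 13.3% (log2 change -0.70, SE 0.31, edgeR adjusted p = 0.0430), with groups that overlapped. The WT against BY4741 call at C1698 (log2 change 2.62, SE 0.36, edgeR adjusted p = 7.41e-06) stands beside a mean of 10.1% in untreated WT, or 15.1% without untreated replicate 1 and 3.01% without untreated replicate 2. That test admitted only sites with a treated mean at least 2 times the untreated mean, which C1698 met narrowly. With an untreated mean of 15.1% the site would not have been tested. In the mL pair C1698 failed this filter and was not tested, with treated means of 7.78% in mL and 0.925% in the deletion.

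A1858 was the other member lower with DMS in mL. It had 0, 0.845 and 0.905% in treated mL, against 4.0, 3.91 and 2.30% in untreated mL, with no overlap (log2 change -2.22, SE 0.63, edgeR adjusted p = 0.000926). In mature ribosomes DMS raised it, by 1.04 in the deletion and 1.68 in BY4741 on the log2 scale. In WT pre-40S it had 4.04, 0.893 and 4.29% with DMS, against 0, 2.29 and 1.42% without, a difference that was not tested at this depth. It was called higher in treated WT pre-40S than in treated BY4741, by 1.45 on the scaled log2 axis (SE 0.45, edgeR adjusted p = 0.0158), in groups that overlapped after scaling. The treated WT mean of A1858 was 3.071%, against 1.237% in untreated WT, or 1.855% without untreated replicate 1. With the latter the site would not have met the filter of 2 times the untreated mean. A1545, A1809 and C1866, which were picked after their values were seen, also had high untreated means in pre-40S. These were 3.66%, 3.38% and 2.71% in mL and 8.20%, 4.98% and 3.87% in WT, against at most 0.225% in either mature strain. The WT means rested in part on replicate 2, above all at A1545, which had 1.96, 20 and 2.61%. Without that library they were 2.29% at A1545, 2.84% at A1809 and 3.11% at C1866.

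**Figure D4:**
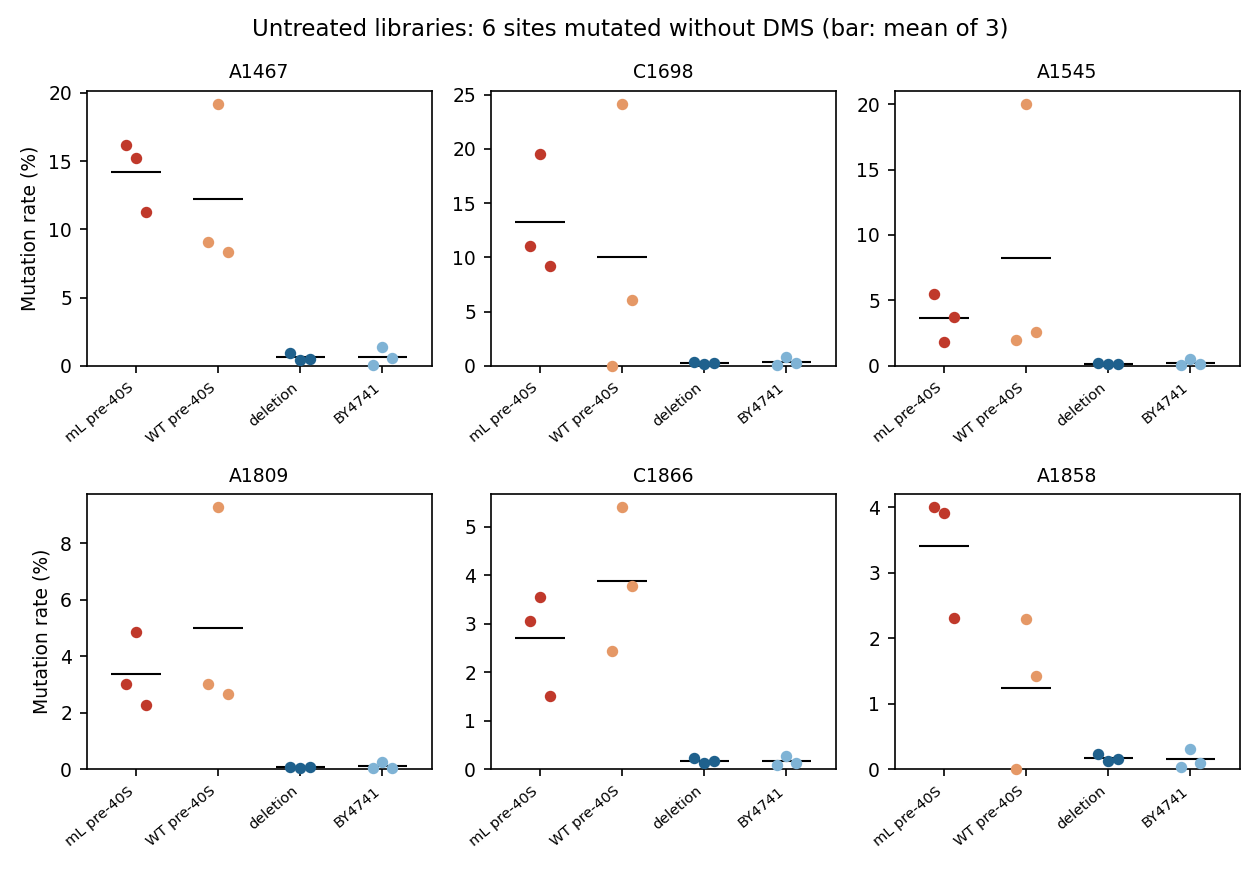
Mutation rate without DMS (percent) at 6 members in mL and WT pre-40S and in deletion and BY4741 mature libraries, with points for libraries and bars for means of 3. A1545, A1809, C1866 and A1858 were chosen after their values were seen. Pre-40S means are above the mature means in every panel, and WT replicate 2 is the highest WT library in all panels.

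The replicates were not alike at these sites. Untreated WT replicate 2, the library with little 25S, was the highest untreated WT library at A1467, C1698, A1545, A1809, C1866 and A1858, and replicate 2 was also the highest of untreated BY4741 at all 6. The part of library make-up in these rates was not tested.

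The profile over members was compared between groups by rank. Spearman's rho over the 109 A was 0.883 between treated mL and WT and 0.994 between the treated deletion and BY4741, and 0.754 between WT and BY4741 and 0.819 between mL and the deletion. For A both values within a particle were above both values between particles. Over the 89 C these were 0.689, 0.956, 0.711 and 0.671, so that for C only the mature pair stood above the values between particles. Sites share libraries and depth, so these are descriptions, and the part of the low pre-40S depth was not tested. The median ratio over A was 2.08 between WT and BY4741 and 2.01 between mL and the deletion.

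No deposited structure of the domain was used here, so the stretch was folded alone with RNAfold at 30 °C to give a predicted state per member. Of 109 A, 64 were predicted unpaired and 45 paired. The unpaired and paired medians with DMS were 3.04% and 0.703% in mL, 2.32% and 0.756% in WT, 1.45% and 0.408% in the deletion and 1.11% and 0.364% in BY4741. For the 14 unpaired and 75 paired C they were 0.607% and 0.188% in mL, 1.06% and 0.263% in WT, 0.385% and 0.0798% in the deletion and 0.337% and 0.0989% in BY4741. Predicted unpaired bases thus had the higher median in all 4 treated groups for both bases. At 37 °C 180 members kept their predicted state and 18 did not. A fold of the isolated RNA has no proteins and no other domains.

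The sites that differed between particles were of both states. Of the 15 lower in both pairs, 4 were predicted paired at both temperatures, A1503, A1656, A1741 and A1760, and 8 unpaired. All 3 of the higher sites were predicted unpaired. Of the 112 members tested in both pairs, 41 were predicted paired and 59 unpaired at both temperatures. In treated BY4741 the 4 paired ones had mean rates of 1.98%, 5.94%, 1.20% and 6.81%, all above the median of predicted paired A. A call of a lower rate in pre-40S favours sites with high mature rates, so this is no separate result.

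**Figure D5:**
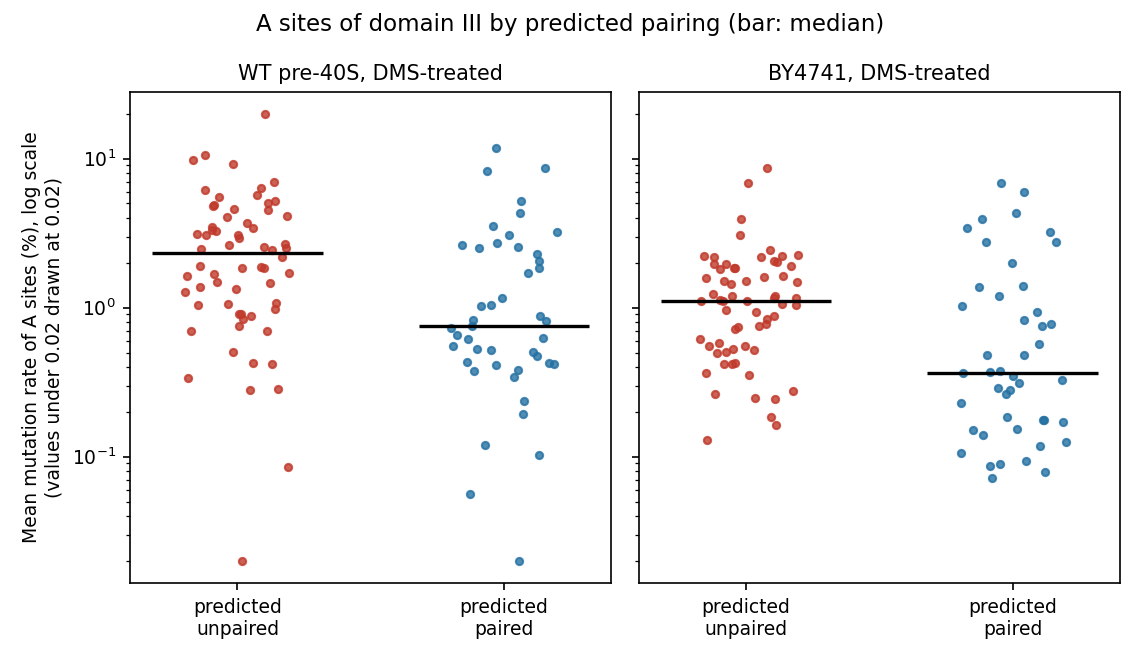
Mean mutation rate with DMS (percent, log axis) of the 109 A members, grouped by predicted unpaired or paired state at 30 °C, in WT pre-40S and BY4741. Each point is a site, the line is the median and values under 0.02% are drawn at 0.02%. Medians for unpaired and paired A are 2.32% and 0.756% in WT pre-40S and 1.11% and 0.364% in BY4741, and the ranges overlap.

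The base that follows also went with the rate. With DMS in WT pre-40S the median was 3.07% at the 33 A followed by A, 1.85% at the 19 followed by C, 1.04% at the 33 followed by G and 0.873% at the 24 followed by U. In BY4741 the order was A, U, G and C, with medians of 1.11%, 0.906%, 0.518% and 0.376%. For C the highest median was before A in both groups, at 0.864% in WT pre-40S and 0.296% in BY4741 over 23 sites.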

How the data were processed

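Per the labels' protocols, RNA from DMS-treated and untreated particles was fragmented, copied with TGIRT-III and read as single-end reads of 100 bp, and the submitters' processing notes name Bowtie2. The labels name no mutation counter and no build. The deposited profiles give, per the file headers, a mutation count, an effective depth and a mutation rate as a fraction for every base of RDN37. The rate as deposited by the authors equalled mutations over effective depth within 5e-07 and is printed here as a percent, and the profiles' own control columns had a depth of 0. No libraries shared more than 1.32% of their values.

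edgeR 4.0.16 (R 4.3.3, quasi-likelihood) was run on mutation counts with effective depth as an offset, and a library factor except in tests of DMS. Sites needed a depth of 50 (pre-40S) or 1000 (mature), and 30 mutations with a treated mean at least 2 times the untreated mean when treated groups were compared, or 10 mutations otherwise. p-values were adjusted by Benjamini-Hochberg over all sites tested, and SEs are the change over the square root of F. limma 3.58.1 (0.5 mutations added) and DESeq2 1.42.0 were alternatives. The fit for comparisons of 2 groups was run on simulated counts with edgeR, limma and DESeq2, and the interaction fit was not. ViennaRNA 2.7.2 folded the stretch. Named sites were the most mutated A and C, the largest changes called, the smallest p where none was called, the highest untreated sites, the least mutated A, and A1449. Members and lists were chosen with earlier results of these data known. Same-numbered replicates did not deviate together (correlations of -0.236 to 0.0442), so the numbers were not taken as pairs.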

Additional observations from a re-analysis of the deposited data

Results flagged for a closer look

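Some G and U bases of the stretch, which the comparisons leave out, also showed a signal above the untreated level. In BY4741 5 of 126 G and 15 of 104 U were higher with DMS by edgeR at an adjusted p under 0.05, together 8.7% of those tested, where 10.3% of all tested G and U of RDN37 were, and none was lower. In the deletion 31 of 230 were higher and 17 lower, which is 13.5% and 7.39%, against 13.5% and 7.32% over RDN37. In pre-40S 0 of 75 were higher in mL and 1 of 24 in WT, against 3.64% and 7.09% over RDN37. The largest in BY4741 was U1732, the base after A1731, at 0.201% in treated against 0.0286% in untreated BY4741 libraries (log2 change 2.85, adjusted p = 2.98e-06). U1568 and U1716 followed, at log2 changes of 2.22 and 2.18. These sites were picked after their values were seen.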

How the results depend on the processing

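Over 157 settings of the counts of called members, 144 stayed within 1.5 times the reported count and 13 moved beyond it, and the cause was not tested unless fewer sites or libraries gave it. Shares of all tested sites are not given for these settings, DESeq2 among them, so the counts describe stability only. Without a library factor 17 members were called between the treated deletion and BY4741, 60 between WT pre-40S and BY4741 and 74 between mL pre-40S and the deletion, and the direction turned at A1810 (0.051), A1813 (0.12) and, in the WT pair, A1449 (0.34). Without the filter on treated over untreated rate 1 member was called between treated mL and WT (C1698) and 1 between the treated deletion and BY4741 (C1496). DESeq2 called 1 member between the treated deletion and BY4741 and 4 in the mature interaction. With at least 30 mutations, fewer sites were tested and 46 members were higher with DMS in mL and 17 in WT. Leaving out 1 library at a time gave 65 to 87 members higher with DMS in mL, 23 to 62 in WT (62 without untreated replicate 1), 141 to 148 in the deletion and 135 to 144 in BY4741. It gave 26 to 32 called in the WT pair, 19 to 29 in the mL pair (19 without mL replicate 2), 0 to 1 in the pre-40S interaction (1, A1842, without untreated WT replicate 1), 0 to 2 in the mature one (2, A1571 and A1842, without untreated BY4741 replicate 1) and 0 to 0 in each of the 4 strain comparisons. With the replicate number as a block the strain comparisons and interactions kept counts of 0 and the DMS effects had 84, 29, 143 and 140 members higher in mL, WT, the deletion and BY4741. No paired analysis was possible for pre-40S against mature because the numbers come from separate experiments. A minimum depth of 100 gave no value for tests that use untreated WT. Depth limits the pre-40S results: the untreated comparison of mL and WT could test 13 members. Leaving out untreated WT replicate 1 or 2 for untreated means was chosen after seeing the data.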
